A study of Caenorhabditis elegans with 21 samples.

Results

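Oxidative phosphorylation is carried out by enzyme complexes of the inner mitochondrial membrane. Complexes I and II pass electrons from NADH and succinate to ubiquinone, complex III passes them on to cytochrome c, complex IV passes them from cytochrome c to oxygen, and complex V, the ATP synthase, makes ATP from the proton gradient. Most subunits are encoded in the nucleus and imported, but a small core of complexes I, III, IV and V is encoded by the mitochondrial genome (MtDNA) and is transcribed and translated inside the organelle. Oocytes carry a large store of mitochondria and MtDNA into the embryo.

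The genes described here were chosen by symbol (nuo-, ndua-, ndub-, nduf-, ndus-, nduv-, cox-, cyc-, ucr-, isp-, sdha-, sdhb-, atp-, asb- and asg-) together with the protein-coding genes of MtDNA, without use of any measured value. The rule found 78 genes among the 46891 of the embryo tables. The nuclear set has 66 genes: 30 of complex I, 3 of complex II, 7 of complex III, 7 subunits and 8 assembly factors of complex IV, 9 of complex V and 2 for cytochrome c. The MtDNA set has 12 genes: 7 of complex I (ND1 to ND6 and ND4L), cytochrome b (CYTB) of complex III, COX1, COX2 and COX3 of complex IV, and ATP6 of complex V. Of the 78 genes, 77 are among the 18887 of the RIP files, and cox-16 is not.

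Libraries of Caenorhabditis elegans from mRNA-seq and from RIP-seq (RNA immunoprecipitation sequencing) were analysed, all from animals grown at 25 °C. mRNA-seq was made from early embryos of wild type N2, of oma-1(zu405), which carries the P240L change in the oocyte RNA-binding protein OMA-1, and of the double mutant fzy-1(D433N);oma-1(zu405), which also carries a change in FZY-1, the Cdc20 activator of the anaphase promoting complex. RIP-seq, in which RNA bound to OMA-1::GFP was pulled down with GFP-Trap beads and compared with the input RNA, was made from young adults, in collections of 100000 worms. Its strains were oma-1::gfp, the same tag on the mutant protein (oma-1(P240L)::gfp), and the latter combined with fzy-1(D433N), written fzy-1;oma-1(P240L)::gfp. The 3 RIP strains all carry the GFP tag, so no untagged control was analysed here, and both genes carry point mutations, so their own RNA levels do not check the labels.

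For the embryos, 2 libraries per genotype were analysed, of 3 that the labels describe. Their column names do not tie them to the replicates of the labels, and nothing says that they came from separate cultures, so the p-values measure only the spread between these libraries, which may be technical. They are called N2 A1 and A2, oma-1(zu405) C1 and C2, and double mutant D1 and D3. Their totals lay between 3599426 and 18815357 counts, so that 3 counts correspond to 0.159 to 0.833 CPM (counts scaled to a library total of 1e6). D1 stood apart from D3 in that rRNA genes took 5.98% of its counts against 0.0525% in D3, and its 10 most abundant genes took 17.5% against 4.13%, while in the other 4 libraries these shares were at most 1.04% and 7.54%. In bulk samples such as these, fewer cells of a type and less RNA per cell cannot be told apart.

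In N2 embryos the MtDNA genes included the most abundant members. As CPM per kilobase of exon, averaged over the 2 libraries, COX3 reached 3426, COX2 2384 and COX1 1616, the catalytic core of cytochrome c oxidase. The most abundant nuclear members on this per-length scale were the cytochrome c gene cyc-2.1 at 874, the ATP synthase beta subunit gene atp-2 at 645 and cox-5A at 540.2, with a median of 148 over the 66 nuclear genes and 402 over the 12 MtDNA genes. In oma-1(zu405) embryos the nuclear median was 387 and the MtDNA median 213, so the order of the sets was the opposite, and the highest nuclear genes, cox-7C at 2779 and cyc-2.1 at 2772, lay above COX3 at 1106.

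The nuclear members together took 1.07% and 1.1% of all counts in the N2 libraries and 3.02% and 3.04% in the oma-1(zu405) libraries. The MtDNA members took 0.950% and 1.05% in N2 but 0.407% and 0.353% in oma-1(zu405). The nuclear share was thus higher and the MtDNA share lower in both oma-1(zu405) libraries than in both N2 libraries. Shares of all counts are values scaled by the library total. Under the other scaling used below, the median log2 fold change of the MtDNA members in oma-1(zu405) was 0.17. The double mutant libraries differed from each other, with nuclear shares of 4.04% in D1 and 1.34% in D3 and MtDNA shares of 3.40% and 0.753%.

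**Figure D1:**
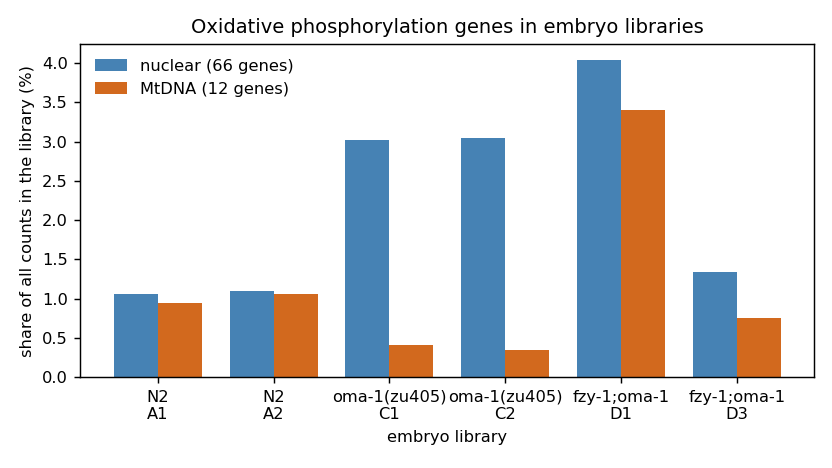
Share of all counts (%) taken by the 66 nuclear and the 12 MtDNA genes in each of the 6 embryo libraries, as bars from 0. The nuclear bars of oma-1(zu405), 3.02% and 3.04%, stand above those of N2, 1.07% and 1.1%, while its MtDNA bars, 0.407% and 0.353%, stand below those of N2, 0.950% and 1.05%.

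The ratio of MtDNA to nuclear counts, which does not depend on the scaling of the libraries, was 0.891 and 0.960 in N2 against 0.135 and 0.116 in oma-1(zu405), and 0.841 (D1) and 0.563 (D3) in the double mutant. It was 7.40-fold lower in oma-1(zu405) than in N2, a log2 difference of -2.89. The libraries of the 2 genotypes did not overlap, and the 2-sided exact permutation test gave p = 0.333, the smallest p that 2 libraries against 2 allow, so no such test can reach 0.05 here. The double mutant differed from N2 by -0.43 and from oma-1(zu405) by 2.46 on the log2 scale, again without overlap and with an exact p of 0.333 each. The double mutant values share their N2 and oma-1(zu405) libraries with the first comparison. Taking the median over genes of counts per kilobase in place of the sums gave -2.25 for oma-1(zu405) and -0.068 for the double mutant against N2.

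Fold changes between embryo genotypes were then fitted gene by gene with edgeR (quasi-likelihood test, trimmed mean of M-values (TMM) scaling, Benjamini-Hochberg adjustment over all genes tested, called at an adjusted p under 0.05). In oma-1(zu405) against N2, 62 of the 64 nuclear members tested were called higher and 0 lower, with a median log2 fold change of 2.56. The background was high: of the 12520 genes tested, 34.8% were called higher and 42.4% lower, and the median over all of them was -0.24. Past a log2 fold change of 2, 46 of the 64 were higher, against 11.6% of all genes. cox-17, a copper chaperone gene of complex IV assembly, and cyc-2.2 did not pass the minimum of 10 counts in 2 libraries. All 62 calls were lost when the 6 embryo libraries were fitted together: that fit called 0 genes of the whole table, while the nuclear median was 2.64. DESeq2 called 60 nuclear members and 8679 of all 12520 genes, in either direction.

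The scaling sets how far these values lie from 0. When libraries were scaled by total counts instead, the median of all genes moved from -0.24 to -1.51 and the nuclear median was 1.3. On that scale 52 nuclear members were called higher and 4 lower (nduv-2 -0.38, nuo-4 -1.2, cox-10 -1.22 and cox-18 -0.67). Without C1, nduv-2 was also not called on the TMM scale. The share of all genes called with total counts is not given, so these 2 counts are not read as a result about the members.

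By complex, the median log2 fold change (TMM) was 3.04 for the complex IV subunits, of which 7 of 7 were higher and all 7 past 2. It was 2.89 for complex V, with 9 of 9 higher and 7 past 2, and 2.55 for complex I, with 29 of 30 higher and 24 past 2. It was 2.29 for complex III, with 7 of 7 higher and 5 past 2. For complex II it was 1.53, with 3 of 3 higher. The assembly factors of complex IV, which build the enzyme but are not part of it, had a median of 1.28, with 6 of the 7 tested higher and 1 past 2. The difference between complexes was not tested.

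**Figure D2:**
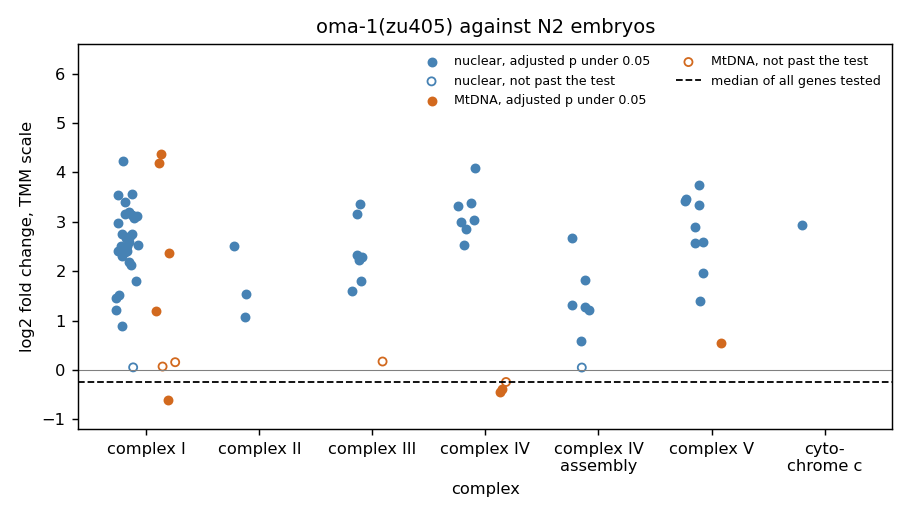
Log2 fold change (TMM scale) of each member in oma-1(zu405) against N2 embryos, by complex, filled where the adjusted p is under 0.05 and open otherwise. Nuclear members lie between 0.05 (cox-10) and 4.23 (nduv-3), while the MtDNA members spread from -0.61 (ND5) to 4.37 (ND6) around a median of 0.17. Scaled by total counts instead, the nuclear median is 1.3 and the MtDNA median -1.09, which is below 0 but above the median of all genes.

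Among the nuclear members with at least 100 counts in every oma-1(zu405) library, nduv-3, atp-4 and cox-7C changed most. Values below are TMM-normalised CPM. nduv-3 (WBGene00022075, chromosome IV, 2641310-2642113), an accessory subunit gene of complex I, had 26.4 and 27.4 in N2 against 533 and 534 in oma-1(zu405), 13814 for D1 and 29.0 for D3. Its log2 fold change in oma-1(zu405) was 4.23 (SE 0.17, adjusted p = 2.07e-18, edgeR). The double mutant libraries thus lay on either side, D1 above the oma-1(zu405) libraries and D3 near N2.

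cox-7C (chromosome I, 9773172-9774012), a small complex IV subunit gene, had 77.6 and 98.1 in N2 against 1759 and 1374 in oma-1(zu405), 5463 for D1 and 125 for D3, a log2 fold change of 4.09 (SE 0.19). atp-4 (chromosome V, 6426246-6427112), which encodes coupling factor 6 of the ATP synthase stalk, had 106 and 113 in N2 against 1423 and 1738 in oma-1(zu405), 4679 for D1 and 179 for D3, a log2 fold change of 3.75 (SE 0.16). The 3 genes were picked among those whose oma-1(zu405) libraries both lay above both N2 libraries, so that order is not a result. For each of the 3, D3 lay closer to N2 than D1 did.

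Core subunits moved in the same direction with smaller changes in complex I. nuo-1, the gene of the FMN-carrying subunit that takes electrons from NADH, had 198 and 170.0 in N2 against 687 and 678 in oma-1(zu405), a log2 fold change of 1.81 (SE 0.15). nuo-2, homologous to mammalian NDUFS3, had 64.4 and 69.0 against 309 and 339.7 (2.19). sdhb-1, the iron-sulfur subunit gene of succinate dehydrogenase, had 65.2 and 73.0 against 398 and 442 (2.51). In all 3 the N2 and oma-1(zu405) libraries did not overlap. The D1 and D3 values were 492 and 224 for nuo-1, 466 and 78.4 for nuo-2, and 362 and 101 for sdhb-1.

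In complex III, the cytochrome c1 gene cyc-1 had 236 and 195 in N2 against 814 and 770.3 in oma-1(zu405), a log2 fold change of 1.80. isp-1, the Rieske iron-sulfur protein gene, had 172 and 164 against 1517 and 1654 (3.15). In complex IV, cox-4 had 149 and 156 against 1329 and 1333 (3.04), and cox-5A had 225 and 236.9 against 1361 and 1500.1 (2.54). In complex V, the alpha subunit gene atp-1 had 365 and 521 against 2335 and 3345 (2.57) and the beta subunit gene atp-2 had 641 and 788 against 4906 and 6487 (2.89). Each of these 6 genes was called higher, with no overlap between the genotypes.

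Genes that come as paralogs did not all move alike. asb-1 and asb-2 encode alternative b subunits of the ATP synthase, of which asb-1 is known as the germline isoform. asb-1 (chromosome III, 4594543-4595821) had 65.5 and 61.4 in N2 against 791 and 695 in oma-1(zu405), a log2 fold change of 3.47 (SE 0.17). asb-2 (chromosome X, 4469766-4471476) had 125 and 127 against 353 and 354, a log2 fold change of 1.41 (SE 0.15), which fell to 0.15 with total counts (adjusted p = 0.237, edgeR) and was then not called.

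Per length, the asb-1 to asb-2 ratio of counts was 0.603 and 0.557 for N2 and 2.58 and 2.26 for oma-1(zu405). It was 4.33 for D1 and 0.527 for D3. The more abundant isoform was thus asb-2 in A1, A2 and D3 and asb-1 in C1, C2 and D1. In the input RNA of adults the ratio of RPKM (reads per kilobase, scaled to library size) lay between 1.00 and 1.80 in all 6 libraries. This ratio does not depend on scaling, and its difference was not tested.

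The g subunit paralogs gave a like order: asg-1 had 57.6 and 40.5 in N2 against 641 and 459.9 in oma-1(zu405) (3.41), and asg-2 had 39.1 and 41.5 against 171 and 159 (1.96). Their per-length ratio was 1.54 and 1.02 in N2 and 3.91 and 3.02 in oma-1(zu405). sdha-1 and sdha-2, for the flavoprotein subunit of succinate dehydrogenase, had log2 fold changes of 1.53 and 1.08, the second of which was -0.18 with total counts and then not called. Those of the complex III core protein genes ucr-2.1, ucr-2.2 and ucr-2.3 were 1.61, 2.22 and 2.29. cyc-2.1 had 292 and 259.6 against 2474 and 1938 (2.93), whereas its paralog cyc-2.2 had at most 3 counts in any embryo library. Reads shared by near-identical copies could be split or dropped in counting, so the values of paralogs are uncertain to that extent.

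The lowest fold changes of the nuclear set were those of the complex I gene nuo-4 and the assembly gene cox-10, which encodes heme farnesyltransferase. nuo-4 had 139 and 141.9 in N2 against 160.4 and 147 in oma-1(zu405), and cox-10 had 11.8 and 12.8 against 13.1 and 13.4. Both had a log2 fold change of 0.05 and passed no test on the TMM scale, while with total counts they were called lower, at -1.2 and -1.22. The other assembly genes gave 2.67 (cox-14), 1.83 (cox-15, heme A synthase), 1.32 (cox-11, copper delivery), 1.28 (cox-16), 1.21 (cox-19) and 0.60 (cox-18, membrane insertase), each called higher on the TMM scale, while with total counts cox-11 (0.05), cox-16 (-0.011) and cox-19 (-0.069) were not called and cox-18 was called lower. The calls of cox-16 and cox-18 were also lost without A1, without A2 and without C1 (0.56 to 1.4 and 0.26 to 0.60), and that of cox-19 without C1 (0.49).

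The MtDNA members did not follow the nuclear set. On the TMM scale 5 were called higher in oma-1(zu405) (ND6 4.37, ND4L 4.19, ND3 2.37, ND2 1.19 and ATP6 0.55), 3 lower (ND5 -0.61, COX1 -0.44 and COX3 -0.37), and 4 not called (ND1 0.07, ND4 0.16, CYTB 0.17 and COX2 -0.24). Their median was 0.17, against -0.24 over all genes. The 5 and 3 are 41.7% and 25% of the 12, where 34.8% of all genes were called higher and 42.4% lower. With total counts, 3 were higher (ND6 3.09, ND4L 2.95 and ND3 1.08) and ND2 was at -0.10. The other 8 were lower (ND1, ND4, ND5, CYTB, COX1, COX2, COX3 and ATP6, between -0.71 and -1.86). The share of all genes called on that scale is not given. The MtDNA median was then -1.09, which lay above the median of all genes on the same scale. The direction of ND1, ND2, ND4, CYTB and ATP6 therefore depends on the scaling, while ND3, ND4L and ND6 were higher and ND5, COX1 and COX3 lower under both.

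Some of these TMM calls rest on 1 library. The call of ND2 was lost without A1 (0.50) and without C1 (0.43), and that of ATP6 without A1 (0.34) and without A2 (0.43). Those of COX1 (-0.31) and COX3 (-0.18) were lost without C2, and without C2 CYTB was called higher (0.43). COX2 was called lower without A1 (-0.49).

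The values show 2 kinds of MtDNA gene. COX1, in TMM-normalised CPM, had 1431 and 1544 in N2 against 1195 and 1127 in oma-1(zu405), 5025 for D1 and 1167 for D3. COX3 had 1434 and 1606 in N2 against 1331 and 1147 in oma-1(zu405), 15198 for D1 and 1377 for D3. COX2 had 894 and 1024, 860.4 and 863, 25079 and 657 in the same order. On this scale the oma-1(zu405) libraries lay just below the N2 libraries for these 3 subunits of cytochrome c oxidase, and D1 lay far above all other libraries. With total counts, the log2 fold changes in oma-1(zu405) were -1.70 for COX1, -1.49 for COX2 and -1.63 for COX3. That of COX1 in the double mutant against N2 was then -0.35.

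CYTB had 789.6 and 825 in N2 against 1084 and 827 in oma-1(zu405), 7871 for D1 and 758 for D3. ND1 had 268 and 282, 326 and 282, 2383 and 373, and ATP6 had 312 and 338, 522 and 486, 13469 and 197. ND4 lay between 177 and 229 and ND5 between 116 and 204 in the N2, oma-1(zu405) and D3 libraries, with 2017 and 523 in D1. On the TMM scale D1 was the highest library for each of these 5 genes. With total counts, the log2 fold change of ND5 in the double mutant against N2 was -0.58.

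The genes with the largest changes were of low abundance in N2. ND6 had 6.78 and 3.45 in N2 against 132 and 105 in oma-1(zu405), 2827 for D1 and 5.55 for D3. ND3 had 2.05 and 1.73, 12.6 and 5.94, 651 and 2.26. ND4L had 1 and 3 raw counts in N2, 12 and 13 in oma-1(zu405), 597 for D1 and 12 for D3, so that its fold change rests on counts near the floor of 3. ND2 had 2.51 and 4.41, 8.86 and 4.83, 64.8 and 2.26. In adult inputs ND3, ND4L and ND6 lay between 55.1 and 310.4 RPKM, while ND2 lay between 2.83 and 4.42 RPKM. RPKM are per length and the embryo values here are not, so the 2 cannot be set side by side.

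Gene length moved with these fold changes. ND4L, ND3 and ND6 are the 3 MtDNA members of at most 500 bp. Over all 12501 genes with a length, the median log2 fold change in oma-1(zu405) against N2 was 1.07 for genes of at most 500 bp of exon and -0.75 for those over 2500 bp, with a Spearman rho of -0.25. Over the 64 nuclear members rho was -0.56 and over the 12 MtDNA members -0.73. These correlations are across genes of the same libraries, are given as a description, and their part in the results was not tested.

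The nuclear members are short, with a median of 808.5 bp against 1438 bp for all genes tested, but they also lay above genes of their own length. Their median was 3.17 in the class of at most 500 bp, where that of all genes was 1.07, and 1.53 in the class of 1501 to 2500 bp, where that of all genes was -0.49. All 64 lay above the median of all genes of their length class and 56 (87.5%) above its upper quartile, which 25% of all genes exceed. Of the 12 MtDNA members, 7 lay above the median and 2 above the upper quartile of their class.

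**Figure D3:**
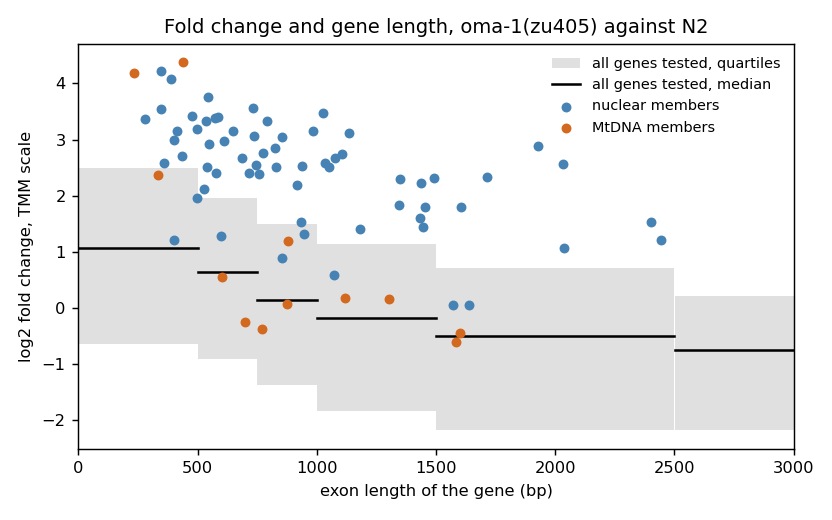
Log2 fold change (TMM scale) in oma-1(zu405) against N2 embryos against the exon length of the gene (bp), for nuclear and MtDNA members, with the median and quartiles of all genes tested in each of 6 length classes. The 64 nuclear members lie above the class medians, which fall from 1.07 to -0.75, and the 3 MtDNA members of at most 500 bp lie far above the others. Scaled by total counts instead, the median of all genes is -1.51 and 8 of the 12 MtDNA members are called lower. The share of all genes called on that scale is not given.

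For 3 nuclear members, over 50% of the exon bases are shared with another gene on the same strand: cox-14 (75.7%), nuo-3 (72.6%) and cox-16 (61.6%). Their counts are uncertain for that reason, and those of nuo-3 were also low (13 to 43 per library). No MtDNA member shared 25% or more.

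Marker genes of other cell types also differed between the genotypes. The 8 oocyte and early embryo genes were all higher in oma-1(zu405), with summed levels of 996 and 1058 CPM in N2 and 4316 and 4416 in oma-1(zu405). Of 7 body wall muscle genes, 6 were lower, with 1823 and 2025 CPM in N2 and 441 and 489 in oma-1(zu405). None of either list was at 0 in any embryo library. The intestine list summed to 213 and 248 CPM in N2 and 57.9 and 61.8 in oma-1(zu405), with 1 or 2 of its 7 genes at 0 in each of these libraries. The sperm list of 9 genes summed to at most 4.37 CPM in any embryo library, with 5 or more at 0. The part of these differences in the results above was not tested.

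Some genes of the same complexes lie outside the naming rule: lpd-5 (complex I) had a log2 fold change of 1.09, mev-1 and sdhd-1 (membrane anchors of complex II) 2.55 and 3.27, and hpo-18 (ATP synthase epsilon) 2.37, each called higher on the TMM scale. Of 18 citric acid cycle genes, 15 were higher and 1 lower (idhg-2, -2.71), with a median of 2.06. Of 8 ubiquinone synthesis genes, 3 were higher and 2 lower, with a median of -0.02. Of the ADP/ATP carrier genes, 2 of the 3 tested were higher and 0 lower. Of 5 genes for MtDNA upkeep and expression, 2 were higher and 2 lower. Of 5 mitochondrial stress genes, 4 were higher and 1 lower. These counts are on the TMM scale and are read against 34.8% higher and 42.4% lower over all genes.

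For the double mutant, 0 of 12684 genes were called against N2 and 0 of 10477 against oma-1(zu405), a background of 0%, and so 0 members were called. At an unadjusted p under 0.05, edgeR gave 506 genes (3 members) and 861 genes (1 member). DESeq2 called 386 genes against N2, of which 12 were nuclear and 4 MtDNA members, and 25 genes against oma-1(zu405), of which 2 were MtDNA members. The median log2 fold change of the nuclear members was 2.41 against N2 and -0.09 against oma-1(zu405), and that of the MtDNA members was 2.81 and 2.66.

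These medians average 2 unlike libraries. In CPM, 45 of the 64 nuclear members with at least 10 counts in D1 or D3 were higher in D1 and 19 lower, with a median D1 to D3 ratio of 2.21. All 12 MtDNA members were higher in D1, by 1.24-fold to 148-fold, with a median of 5.78. On the TMM scale used for the values above, 56 nuclear members were higher in D1 and 8 lower, with a median ratio of 7.60, and the MtDNA members were higher by 4.27-fold to 509.8-fold, with a median of 19.9.

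Other genes differed between D1 and D3 as well. In summed CPM, the 7 body wall muscle genes had 159 in D1 and 1424 in D3, the 7 intestine genes 24.4 and 226, 8 zygotic genes of the young embryo 73.6 and 445, and the 2 mitochondrial rRNAs 494 and 86.2, while the 8 oocyte and early embryo genes had 1287 and 1299. Of these lists, 1 intestine and 1 zygotic gene were at 0 in D1 and none in D3. Their part in the difference between D1 and D3 was not tested.

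The double mutant calls depended on the library kept. Members were called in both comparisons once D1 or D3 was left out, where 0 were called with all libraries. Their counts are not read as a result about the members, since the share of all genes called in those fits is not given. In these fits the lone library is assumed to vary like the others. Without D1, ND5 (-0.57), COX2 (-0.54) and ATP6 (-0.72) were called lower than N2, and ND2 (-0.51), COX1 (-0.34), COX3 (-0.14) and CYTB (-0.082) were below 0 but not called. Without D1, ND2 (-1.50), ND3 (-1.94), ND6 (-4.23) and ATP6 (-1.16) were called lower than in oma-1(zu405), and ND4L (-0.72), COX2 (-0.19) and CYTB (-0.14) were below 0 but not called.

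The RIP-seq asked which RNAs were recovered with OMA-1::GFP. Values are RPKM, compared as log2(RPKM + 1) with limma and Benjamini-Hochberg adjustment. A fold change on this scale understates that of low genes. The depth of these libraries is unknown.

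In adult inputs of oma-1::gfp the most abundant nuclear members were atp-1 (mean 647 RPKM), cyc-2.1 (248) and cox-6C (246), and the most abundant MtDNA members COX2 (1238), COX3 (823) and ATP6 (445). In the precipitate, the nuclear members were on balance lower than in the input. In oma-1::gfp, 39 of the 64 tested were called lower and 1 higher, with a median log2 difference of -1.07. The background was 27.7% lower and 11.8% higher of 9743 genes, with a median of -0.37. For oma-1(P240L)::gfp, 46 of 64 were lower and 1 higher, with a median of -0.70, against 39% lower, 15.4% higher and a median of -0.34 of 9761 genes. For fzy-1;oma-1(P240L)::gfp, 43 of 65 were lower and 1 higher, with a median of -1.05, against 28.2% lower, 11.2% higher and a median of -0.41 of 10849 genes.

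Over the 3 strains, 32 nuclear members were called lower in each and 0 were called higher in each. Leaving out input replicate 1 or 2 reduced the count to 19 or 12 in oma-1::gfp and to 9 or 8 in fzy-1;oma-1(P240L)::gfp, where it was 22 without RIP replicate 2. The count in oma-1(P240L)::gfp was at least 33 without any 1 library. When each library was centred on its median, the counts were 24, 30 and 19.

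The complex IV subunits and the complex IV assembly factors lay apart. All 7 subunits were lower in each strain, with medians of -1.38 in oma-1::gfp, -1.13 with the mutant protein and -1.55 in the fzy-1 strain. The same order of strains is kept below. Of the assembly factors, 0 were called lower in any strain, with medians of 0.08 (7 tested), 0.17 (6 tested) and 0.08 (7 tested). Of the 30 complex I members, 19, 25 and 23 were lower. Of the 9 complex V members, 6, 7 and 6 were lower. The difference between the groups was not tested.

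**Figure D4:**
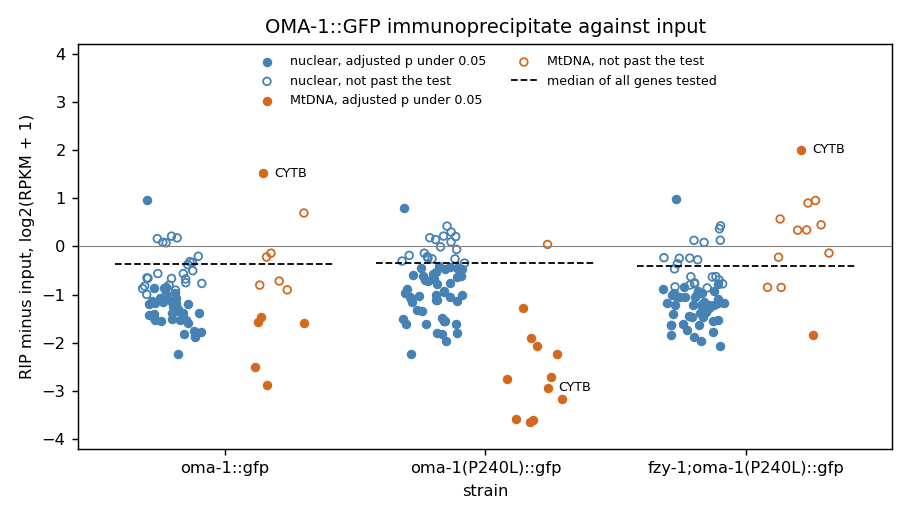
Difference between precipitate and input in log2(RPKM + 1) for the nuclear and MtDNA members in each of the 3 strains, filled where the adjusted p is under 0.05, with the median of all genes tested as a dashed line. The nuclear members have medians of -1.07, -0.70 and -1.05, and the MtDNA members sit lowest in oma-1(P240L)::gfp, with a median of -2.73.

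asg-1, the ATP synthase g subunit gene, fell most in oma-1::gfp among the nuclear members with at least 10 RPKM in each input. It had 179 and 184 RPKM in the inputs and 48.8 and 28.8 in the precipitates, a log2 difference of -2.24 (SE 0.32, adjusted p = 0.00114, limma). The complex I accessory subunit genes ndub-10 (-1.89) and ndua-2 (-1.86) followed. Its paralog asg-2 had 22.3 and 26.1 against 16.1 and 13.8 and was not called in any strain, though in oma-1::gfp it was called lower without RIP replicate 1 (-0.76) and without RIP replicate 2 (-0.56), and in oma-1(P240L)::gfp without RIP replicate 2 (-0.34). In oma-1::gfp the asg-1 to asg-2 ratio was 8.03 and 7.03 in the inputs and 3.04 and 2.08 in the precipitates. asb-1 and asb-2 were both lower in each strain, with log2 differences of -1.54 and -1.52 in oma-1::gfp, and their ratio stayed between 1.52 and 1.61 in all 4 libraries of that strain. In fzy-1;oma-1(P240L)::gfp the call of asb-1 was lost without input replicate 1 (-1.51) and that of asb-2 without input replicate 2 (-1.47).

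In oma-1(P240L)::gfp the largest decreases were those of cyc-2.1, with 154 and 152 RPKM in the inputs and 34.0 and 29.7 in the precipitates (-2.23, SE 0.12), the complex I gene nduv-2 (-1.96) and asb-2 (-1.82). In fzy-1;oma-1(P240L)::gfp they were those of cox-6B, with 258 and 195 in the inputs and 67.8 and 41.5 in the precipitates (-2.06, SE 0.34), ndub-10 (-1.95) and cox-6C (-1.88). Inputs and precipitates that do not overlap were a condition for ranking these genes, so this is not a result.

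The only nuclear members that were higher in a precipitate were ucr-2.3 and cox-17. ucr-2.3 (chromosome III, 879860-881458) had 49.2 and 45.5 RPKM in the inputs and 83.9 and 104 in the precipitates of oma-1::gfp (0.97, adjusted p = 0.0218, limma), and 44.5 and 37.0 against 85.8 and 77.5 in fzy-1;oma-1(P240L)::gfp (0.99, adjusted p = 0.0227, limma). In oma-1(P240L)::gfp it had 31.5 and 30.0 against 33.0 and 38.8 and was not called. Both calls were lost without input replicate 1 and without input replicate 2, the second also without RIP replicate 1, and the first without the filter on low values. Its paralogs ucr-2.1 and ucr-2.2 were called lower in each strain, with log2 differences of -1.12, -1.55 and -1.21 for ucr-2.1 and -1.12, -1.12 and -0.92 for ucr-2.2. In oma-1::gfp and in fzy-1;oma-1(P240L)::gfp the call of ucr-2.1 was lost without input replicate 2 (-0.84 and -0.83), and that of ucr-2.2 without either input (-1.23 to -0.79) and in the latter strain without RIP replicate 2 (-0.73). Centring on the library median ended the calls of ucr-2.1 in both strains (-0.81 and -0.84) and of ucr-2.2 in the latter (-0.55), and leaving out the filter on low values ended that of ucr-2.2 in both and of ucr-2.1 in the former. cox-17 had 31.4 and 28.2 in the inputs and 54.7 and 50.1 in the precipitates of oma-1(P240L)::gfp (0.80, adjusted p = 0.00173, limma).

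The MtDNA members differed between strains. In oma-1::gfp, 5 were called lower (COX1 -2.88, ND6 -2.50, ATP6 -1.59, ND4 -1.56 and ND5 -1.47) and CYTB was higher (1.51). In oma-1(P240L)::gfp, 11 were lower, from -3.64 (ND4) and -3.60 (ATP6) to -1.28 (ND3), and ND4L was at 0.04, with a median of -2.73. Of the 11, ND2 was low, with 2.95 and 2.96 RPKM in the inputs and 0.108 and 0 in the precipitates. Its value ranged from -4.41 to -0.66 under the alternatives. In fzy-1;oma-1(P240L)::gfp, 1 was lower (ND6 -1.84) and CYTB was higher (2.01), with a median of 0.34. Of all genes tested, 27.7%, 39% and 28.2% were lower in the 3 strains, and 11.8%, 15.4% and 11.2% higher. ND6 was the 1 MtDNA member lower in all 3 strains.

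In oma-1::gfp the count of lower MtDNA members was 9 without RIP replicate 2, and ATP6 was not called without input replicate 2. For fzy-1;oma-1(P240L)::gfp the count was 4 without RIP replicate 2. Without that library, ND5 was at -1.29, while without RIP replicate 1 it was called higher, at 1.97, and with all libraries it was not called. The MtDNA gene ND4L in oma-1(P240L)::gfp was called lower (-0.39) without RIP replicate 1 and higher (0.47) without RIP replicate 2.

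CYTB (WBGene00000829, MtDNA 4504-5621) showed the difference between strains most plainly. In oma-1::gfp it had 449.8 and 423 RPKM in the inputs and 904 and 1722 in the precipitates. In oma-1(P240L)::gfp it had 502 and 548 in the inputs and 53.1 and 86.6 in the precipitates. In fzy-1;oma-1(P240L)::gfp it had 537 and 537 in the inputs and 1484 and 3148 in the precipitates. The inputs were alike, whereas the precipitates lay above them in oma-1::gfp and fzy-1;oma-1(P240L)::gfp and below them in oma-1(P240L)::gfp.

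The 2 calls of CYTB as higher rest on few libraries. In oma-1::gfp it was no longer called without input replicate 1 (adjusted p = 0.129, limma) and without input replicate 2 (adjusted p = 0.156, limma). In fzy-1;oma-1(P240L)::gfp it was lost without either input (adjusted p of 0.0611 and 0.0652, limma) and without RIP replicate 2 (1.46, adjusted p = 0.0612, limma). Without the filter on low values both were lost.

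ND1 had 187 and 135 RPKM in the inputs and 129.7 and 159.9 in the precipitates of oma-1::gfp. It had 149.8 and 176 against 14.2 and 20.8 in oma-1(P240L)::gfp, and 221 and 179 against 249 and 349 in fzy-1;oma-1(P240L)::gfp. Its inputs and precipitates overlapped in oma-1::gfp and lay far apart in oma-1(P240L)::gfp. COX1 had 282 and 249 against 29.9 and 41.5 in oma-1::gfp, 514 and 507 against 68.6 and 87.4 in oma-1(P240L)::gfp, and 218 and 359 against 84.4 and 283 in fzy-1;oma-1(P240L)::gfp, where the groups overlapped. ND4 had 44.3 and 86.4 against 49.4 and 272 in the last strain, so that replicate 2 alone was high.

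The strain differences themselves were tested in one limma fit of the 12 libraries over 11736 genes. From oma-1::gfp to oma-1(P240L)::gfp, the enrichment of CYTB fell by 4.45 (SE 0.55, adjusted p = 0.00148, limma) and that of ND1 fell by 3.02 (SE 0.38), where 3.87% of all genes were lower and 1.27% higher. 1 nuclear member, the complex I accessory gene ndua-12, was higher, by 1.16. From oma-1(P240L)::gfp to fzy-1;oma-1(P240L)::gfp, 4 MtDNA members were higher, CYTB by 4.94 (SE 0.55, adjusted p = 0.000457, limma), ND4 by 4.54 (SE 0.91), ND5 by 3.92 (SE 1.13) and ND1 by 3.73 (SE 0.38), and 0 nuclear members were called, where 5.96% of all genes were higher and 3.74% lower. The 2 differences share the oma-1(P240L)::gfp libraries.

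The calls of CYTB, ND1 and ND4 held in every alternative run. That of ndua-12 was lost in 8 of 15 alternatives, among them without each of 7 single libraries, and that of ND5 in 11 of 15. Without RIP replicate 1 of fzy-1;oma-1(P240L)::gfp, 10 MtDNA members were called in the second difference, against 4 with all libraries.

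The MtDNA to nuclear ratio of summed RPKM was 0.728 and 0.807 in the inputs of oma-1::gfp and 0.693 and 2.58 in its precipitates, a log2 difference of 0.80 (exact permutation test, p = 1, 2-sided). For oma-1(P240L)::gfp it was 1.13 and 1.3 in the inputs and 0.301 and 0.365 in the precipitates, a difference of -1.87. For fzy-1;oma-1(P240L)::gfp it was 0.856 and 0.944 against 1.09 and 5.26, a difference of 1.42. The last 2 had no overlap and an exact permutation p of 0.333 each, the smallest possible. Replicate 2 of the precipitates was the high library in oma-1::gfp and in fzy-1;oma-1(P240L)::gfp, and without it the differences were -0.14 and 0.28.

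**Figure D5:**
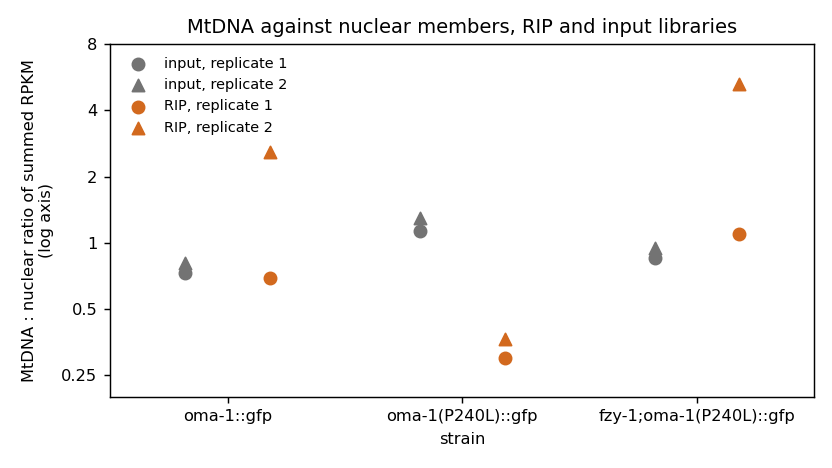
Ratio of summed RPKM of the 12 MtDNA members to that of the nuclear members (log axis) in each input and precipitate library of the 3 strains, with replicate 1 and replicate 2 as separate symbols. Both precipitates of oma-1(P240L)::gfp, 0.301 and 0.365, lie below its inputs, while replicate 2 of the other strains' precipitates, 2.58 and 5.26, lies above all inputs.

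Markers of somatic tissues moved in part with the MtDNA members. Of 7 body wall muscle genes, 2, 6 and 1 were lower and 1 was higher in the precipitates of each of the 3 strains, in the order above. Of the intestine genes 5 of 5, 6 of 6 and 5 of 6 tested were lower, and in the last strain 1 was higher. Summed, the muscle genes gave 751 to 766 RPKM in the inputs and 485 to 624 in the precipitates of oma-1::gfp, 839 to 845 and 817 to 1039 in oma-1(P240L)::gfp, and 627 to 732 and 485 to 500.4 in fzy-1;oma-1(P240L)::gfp. The intestine genes gave 1115 to 1221 and 327 to 535, 1250.3 to 1462 and 304 to 343, and 1566 to 1999 and 545 to 624. No muscle gene was at 0, and 1 intestine gene was at 0 in RIP replicate 1 of oma-1(P240L)::gfp and in RIP replicate 2 of fzy-1;oma-1(P240L)::gfp. In the strain differences, 3 muscle and 2 intestine genes were lower in the first and 3 of each higher in the second, where 1 muscle gene was lower. Their part in the result was not tested.

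Among the pathway genes outside the rule, 7, 9 and 8 of the 18 citric acid cycle genes were lower in the 3 precipitates and 0, 1 and 0 higher. hpo-18 was lower in each, at -1.53, -1.39 and -1.89. Of the 8 ubiquinone genes, 1, 2 and 1 were lower and 1 higher in each.

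Between the inputs, 0 members were called in oma-1(P240L)::gfp against oma-1::gfp, where 3.43% of all genes were higher and 2.13% lower; 5 members had an unadjusted p under 0.05 (limma). In the inputs of fzy-1;oma-1(P240L)::gfp, 1 member was called against oma-1::gfp and 3 against oma-1(P240L)::gfp. Of all 11736 genes, 667 and 1522 were called in the same comparisons. In these inputs, cyc-2.2 (chromosome V, 12611682-12612218), the cytochrome c gene near 0 in embryos, was higher. Its log2 difference was 3.12 (SE 0.32) against oma-1::gfp and 2.21 (SE 0.32) against oma-1(P240L)::gfp. Its RPKM were 0.261 and 0.129 in the inputs of oma-1::gfp, 1.01 and 1.52 in those of oma-1(P240L)::gfp, and 11 and 8.03 in those of fzy-1;oma-1(P240L)::gfp. The background was 5.1% higher and 0.579% lower against oma-1::gfp and 9.94% higher against oma-1(P240L)::gfp.

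Sperm genes moved with cyc-2.2. Of 9 listed, 8 were tested and all 8 were higher in the fzy-1;oma-1(P240L)::gfp inputs against both other strains, and the list summed to 8.58 and 4.60 RPKM in oma-1::gfp, 41.0 and 36.8 in oma-1(P240L)::gfp and 409 and 194 in fzy-1;oma-1(P240L)::gfp. At 0 were 2 and 1 of its genes in the oma-1::gfp inputs, 1 in each oma-1(P240L)::gfp input and none in those of fzy-1;oma-1(P240L)::gfp. Their part in the cyc-2.2 result was not tested.

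Against the oma-1(P240L)::gfp inputs, ND3 was also lower in the fzy-1;oma-1(P240L)::gfp inputs, with 218 and 251 RPKM against 74.5 and 62.7 (-1.76, SE 0.36), where 3.03% of all genes were lower. The call of ND3 was lost without input replicate 2 of oma-1(P240L)::gfp (-1.66) and without that of fzy-1;oma-1(P240L)::gfp (-1.64). cox-17 was lower (-0.89), with 31.4 and 28.2 against 18.5 and 13.1. The call of cox-17 was lost without either oma-1(P240L)::gfp input and without input replicate 2 of fzy-1;oma-1(P240L)::gfp.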

How the data were processed

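Early embryos (mRNA-seq, 6 libraries) and adults (RIP and input, 12 libraries) were analysed, of 21 samples in the labels. For the embryos, the authors deposited whole read counts per gene. For RIP-seq, the authors deposited RPKM, on a scale 1000 times larger, and values were divided by 1000. The submitters' processing notes name CASAVA 1.4, HISAT2 2.0.5 and HTSeq 0.6.0. The genome build and strand setting are not given in the sources used here. Coordinates are those of WBcel235, matched by gene identifier, and MtDNA genes carry RefSeq symbols. Columns of the authors' own fold changes and p-values were not used, nor were 32 further per-sample columns. Rows named by a transcript (259) held 0 counts.

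Embryo counts were tested with edgeR 4.0.16 (TMM, quasi-likelihood) for genes with at least 10 counts in 2 libraries, with a separate fit for each pair of genotypes. Counts had been assumed for RIP-seq when the tests were planned. In their place, limma 3.58.1 with an intensity trend was fitted to log2(RPKM + 1) for genes with at least 1 RPKM in 2 libraries, by strain, and for strain differences and inputs in one fit of the 12 libraries. P-values were adjusted over all genes tested, with a threshold of 0.05 and log2 fold changes of 2 (embryos) and 1 (RIP) as stricter limits. Ratios were compared with exact permutation tests. TMM-normalised CPM divide counts by the total and the TMM factor of each library, between 0.450 and 1.75. Depth limits low genes: a floor of 3 counts was used, which covers counting error only.

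DESeq2 1.42.0, other scalings, filters and pseudocounts, centring, a replicate block and leaving out each library were alternatives. The embryo fits, the fits of RIP against input and the first strain difference were run on simulated data with known changes. The rule for members uses symbols and the genome of the gene only, no measured value. Members, gene lists and tests were nevertheless chosen with earlier results of these data known. Named genes are the MtDNA members, paralogs, core subunits and, per comparison and direction, the 3 nuclear members with the largest called change whose groups did not overlap and with at least 100 counts or 10 RPKM in each library of the higher group. nuo-3, nuo-4, ndua-12, nduv-2 in the embryos, the cox assembly genes and the pathway genes outside the rule that are given singly were named after their values were seen. 1 gene of the pathway list is not reported here. R 4.3.3, Python 3.11.15, pandas 2.3.3, numpy 2.4.6, scipy 1.17.1 and matplotlib 3.10.9 were used.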

Additional observations from a re-analysis of the deposited data

Results flagged for a closer look

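The enrichment in the precipitate over the input differed between strains for 5 members, by a test of the difference itself in one limma fit of the 12 libraries. From oma-1::gfp to oma-1(P240L)::gfp, CYTB (-4.45) and ND1 (-3.02) were lower, and the complex I gene ndua-12 was higher (1.16). From oma-1(P240L)::gfp to fzy-1;oma-1(P240L)::gfp, CYTB (4.94), ND4 (4.54), ND5 (3.92) and ND1 (3.73) were higher. The precipitates of fzy-1;oma-1(P240L)::gfp differed from each other, with 49.4 and 272 RPKM for ND4 and 21.6 and 216 for ND5. Groups of 2 libraries allow no test for a library that stands apart.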

How the results depend on the processing

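For single named genes, 1770 values kept their side of the threshold under the alternatives, of which 52 changed sign without a call in either fit, 21 reversed with a call in at least 1 of the fits, 79 gained a call and the others lost one. The cause of each change below was not tested. Except for DESeq2 and the fit of all 6 embryo libraries, the share of all genes called in the alternative fits is not given. Their counts are therefore not read as results about the members. In the embryos, the MtDNA to nuclear log2 difference from medians of counts per kilobase was -2.25 for oma-1(zu405) and -0.068 for the double mutant against N2. For oma-1(zu405) against N2, one fit of all 6 libraries called 0 nuclear members higher and 0 MtDNA members in either direction, and total counts gave 3 MtDNA members higher and 8 lower. For the double mutant against N2, DESeq2 called 12 nuclear and 4 MtDNA members and no filter 6 and 4; against oma-1(zu405), DESeq2 and no filter each called 2 MtDNA members. In oma-1::gfp, nuclear members lower were 15 without the filter and 24 after centring, and MtDNA members lower 2 without the filter, 3 after centring and 3 in one fit of the 12 libraries. Nuclear members lower were 30 after centring in oma-1(P240L)::gfp, and 26 without the filter and 19 after centring in fzy-1;oma-1(P240L)::gfp. Inputs of fzy-1;oma-1(P240L)::gfp against oma-1::gfp gave 2 nuclear calls after centring.

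Reversed values were, with total counts in oma-1(zu405) against N2, ND1 -1.19, ND2 -0.10, ND4 -1.1, CYTB -1.09, ATP6 -0.71, nuo-4 -1.2, cox-10 -1.22, sdha-2 -0.18, nduv-2 -0.38, cox-16 -0.011, cox-18 -0.67 and cox-19 -0.069. Leaving out each library in turn, with D1 giving the lowest and D3 the highest value, the double mutant ranged from -0.57 to 1.47 for ND5, -0.54 to 4.66 for COX2 and -0.72 to 5.32 for ATP6 against N2, and from -1.50 to 3.30 for ND2, -1.94 to 6.16 for ND3, -4.23 to 4.78 for ND6 and -1.16 to 4.95 for ATP6 against oma-1(zu405). In the precipitates, ND4L ranged from -0.39 (without RIP replicate 1) to 0.47 (without RIP replicate 2) in oma-1(P240L)::gfp, and ND5 from -1.29 (without RIP replicate 2) to 1.97 (without RIP replicate 1) in fzy-1;oma-1(P240L)::gfp.

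Leaving out each library in turn, the embryo log2 ratio differences ranged from -3.0 to -2.78 (oma-1(zu405) against N2), -0.72 to -0.14 (double mutant against N2) and 2.17 to 2.75 (double mutant against oma-1(zu405)). The RIP differences ranged from -0.14 to 1.75, -2.01 to -1.73 and 0.28 to 2.55 in the order of strains above. Each fit without a library leaves a lone library in its group, and the share of all genes called in it is not given. The counts of called members below therefore show only how calls depend on single libraries. They are not read as results about the members. Called members in oma-1(zu405) were 58 to 62 nuclear, and 3 to 5 MtDNA higher and 1 to 4 lower. In the double mutant they were 0 to 58 nuclear and 0 to 11 MtDNA against N2, and 0 to 60 and 0 to 12 against oma-1(zu405). Members lower in the precipitates were 12 to 55 nuclear and 4 to 9 MtDNA in oma-1::gfp, 33 to 49 and 10 to 12 in oma-1(P240L)::gfp, and 8 to 46 and 1 to 4 in fzy-1;oma-1(P240L)::gfp. MtDNA members called in the 2 strain differences were 2 in every case and 3 to 10, and nuclear members called between inputs were 0, 1 and 1 to 4.

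The labels do not say whether the numbers in the embryo column names mark pairs. The double mutant shares only the number 1 with the other genotypes, so no block could be fitted there. For oma-1(zu405) against N2, deviations of libraries with the same number correlated at 0.174, and a replicate block by that number, chosen after seeing the data, called 62 nuclear members higher and 5 MtDNA members higher and 3 lower, the counts without it. In the RIP-seq, deviations of the same-numbered RIP and input libraries correlated at 0.0812, 0.0335 and 0.273 in the order of strains above. The main fits took the numbers as pairs in no strain. In fzy-1;oma-1(P240L)::gfp, with the highest correlation, a pairing may thus have been ignored. With a replicate block, 3 MtDNA members were lower in fzy-1;oma-1(P240L)::gfp, against 1 without it. Between the P240L strains 8 differed, against 4 without it. The block also gave 2 nuclear members that differed between the inputs of fzy-1;oma-1(P240L)::gfp and oma-1::gfp. With it ndua-12 was not called (adjusted p = 0.0566, limma). A floor of 3 counts limits ND4L in embryos.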
